A study of Rattus norvegicus with 6 samples.

Results

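The 10 genes of the core circadian clock listed here were followed in the intestines of male rat pups at weaning, and 9 of them were found among the 18166 genes that the arrays measured. They were chosen by name, as the activators (*Bmal1*, *Clock*, *Npas2*), the repressors (*Per1*, *Per2*, *Per3*, *Ciart*, *Nr1d1*, *Nr1d2*) and the output factor *Dbp* of the clock. The rule used no measured value, but the list was drawn up with earlier results of these data known. *Nr1d2* was not matched to a row and was not analysed here. The pups were Sprague Dawley rats of 3 weeks. In the HFD-sitagliptin group (3 pups), the dams ate a high-fat diet and also received sitagliptin, an oral inhibitor of dipeptidyl peptidase 4, through pregnancy and lactation. In the HFD group (3 pups), the dams ate the same diet without the drug. The labels name each pup by the treatment of its dam, its age and a replicate number, while the sex, and the diet of dams given the drug, come from the study's methods, which took 1 male pup from each litter. RNA of each pup was read on 1 Affymetrix rat gene array, and all levels below are log2 values as normalized by the authors, on which a difference of 1 is a doubling. The pups lived in a light and dark cycle and were fasted before anaesthesia, and the hour at which each pup was killed is not given in the sources used here.

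The clock runs in nearly every cell of the body as a loop of transcription factors. BMAL1 pairs with CLOCK or with its relative NPAS2, binds E-box sequences and switches on the *Per* and *Cry* genes, *Nr1d1*, *Nr1d2*, *Ciart* and *Dbp*. The PER and CRY proteins return to the nucleus and block BMAL1 and CLOCK, while NR1D1 and NR1D2, the REV-ERB nuclear receptors, silence *Bmal1* through elements that they share with the activating ROR receptors. In the rodent gut the clock is set largely by the time of feeding and paces absorption, motility and renewal of the epithelium, and *Nr1d1* and *Dbp* are among the genes with the deepest daily swing in many tissues.

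The windows around the annotated starts of *Nr1d1* and *Bmal1* are shown because the first is the 1 member past the study's threshold, which rests on an unadjusted p and is given below. The second is the best known gene that the protein of *Nr1d1* silences. Each runs from 250 bases before the start to 50 bases after it, 5′ to 3′ on the gene's strand, from RefSeq on build GRCr8, and capitals mark the motif matches. *Nr1d1* has a pair of annotated starts, at chr10:84231763-84232062 and chr10:84229405-84229704 on the minus strand, and *Bmal1* has 1, at chr1:176766078-176766377 on the plus strand.
Nr1d1 upstream start: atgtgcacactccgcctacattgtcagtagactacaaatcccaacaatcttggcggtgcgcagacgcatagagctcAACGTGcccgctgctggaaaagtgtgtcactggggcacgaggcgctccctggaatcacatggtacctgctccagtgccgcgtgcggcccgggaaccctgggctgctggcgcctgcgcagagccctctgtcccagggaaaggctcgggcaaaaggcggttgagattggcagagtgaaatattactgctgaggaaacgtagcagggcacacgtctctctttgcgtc
Nr1d1 downstream start: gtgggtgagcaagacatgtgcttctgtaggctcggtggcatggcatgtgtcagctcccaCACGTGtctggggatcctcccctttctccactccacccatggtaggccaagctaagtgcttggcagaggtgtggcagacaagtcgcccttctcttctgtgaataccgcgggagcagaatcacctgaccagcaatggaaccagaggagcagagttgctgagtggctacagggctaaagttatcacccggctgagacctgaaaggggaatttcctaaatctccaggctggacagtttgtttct
Bmal1: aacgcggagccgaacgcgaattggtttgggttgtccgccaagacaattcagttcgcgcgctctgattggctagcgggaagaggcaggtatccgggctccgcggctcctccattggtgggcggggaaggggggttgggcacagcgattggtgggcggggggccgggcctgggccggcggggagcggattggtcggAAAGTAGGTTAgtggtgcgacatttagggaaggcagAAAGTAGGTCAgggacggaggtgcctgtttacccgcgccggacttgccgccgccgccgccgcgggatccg
The motifs searched, on both strands, were the E-box CACGTG, its variant CACGTT, the D-box TTATGTAA that DBP binds, and the REV-ERB and ROR element in a long form, AAAG followed directly by TAGGTNA, and as its core TAGGTCA, which lies within the long form where its N is C. The *Bmal1* window held AAAGTAGGTTA with its first base at position -56 and AAAGTAGGTCA with its first base at position -20, counted from the annotated start. The long form was found in 12 of 33469 rat promoter windows (0.0359%). Its letters are fixed except at the base where the *Bmal1* matches differ, so its rarity is not a result about *Bmal1*. The downstream *Nr1d1* start had 1 E-box, and 6.42% of all windows have one. The upstream start had 1 match to CACGTT, on the minus strand, where the window reads AACGTG, and 4.83% of all windows have a match to that variant. Among the other members, *Ciart* had 3 E-boxes and *Per2* had 1 CACGTT and 1 D-box (0.893% of all windows), and the windows of *Nr1d2*, *Clock*, *Npas2*, *Per1*, *Per3* and *Dbp* held none of these letters. The *Per1* window (chr10:54304126-54304425) lies within the gene, which begins at 54299002. The windows of *Npas2*, *Per3* and *Ciart* also lie wholly within their genes. The upstream ends of *Per1*, *Npas2*, *Per3* and *Ciart* were therefore not searched. TAGGTCA was found in 2.63% of all windows and among the members in *Bmal1* alone. A match describes the letters of the window and is not a measured binding site.

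*Nr1d1*, the REV-ERB-alpha gene, was lower in every HFD-sitagliptin pup than in any HFD pup. Its level was 5.63, 5.58 and 6.23 in HFD-sitagliptin replicates 1, 2 and 3, against 6.86, 7.06 and 7.37 in HFD replicates 1, 2 and 3. The groups did not overlap, as for 5.54% of all genes in this direction. They were separated by a gap of 0.63, and HFD-sitagliptin replicate 3 was the nearest to the HFD pups. The mean was 5.81 ± 0.36 in HFD-sitagliptin pups and 7.09 ± 0.26 in HFD pups (SD, n = 3 each), a log2 fold change of -1.28 with a standard error of 0.23 and a 95% interval of -1.83 to -0.74, so that the level was 0.412 times that of HFD pups. In limma, a linear model whose estimate of the spread borrows from all genes, the unadjusted p was 0.00102, the 7th smallest of 18166 genes. *Nr1d1* was the 1 member of 9 past the threshold that the study used, 1.5-fold or more together with an unadjusted p under 0.05. In limma 2.01% of all genes passed it, 1.3% with lower and 0.705% with higher levels in HFD-sitagliptin pups. After Benjamini-Hochberg adjustment over all genes the limma p was 0.718, and 0 genes reached an adjusted p of 0.05 in limma, where 1040 did so unadjusted, or in the methods' t-test, where 774 did. An exact two-sided permutation test gave p = 0.1, the smallest that 3 against 3 pups can give.

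**Figure D1:**
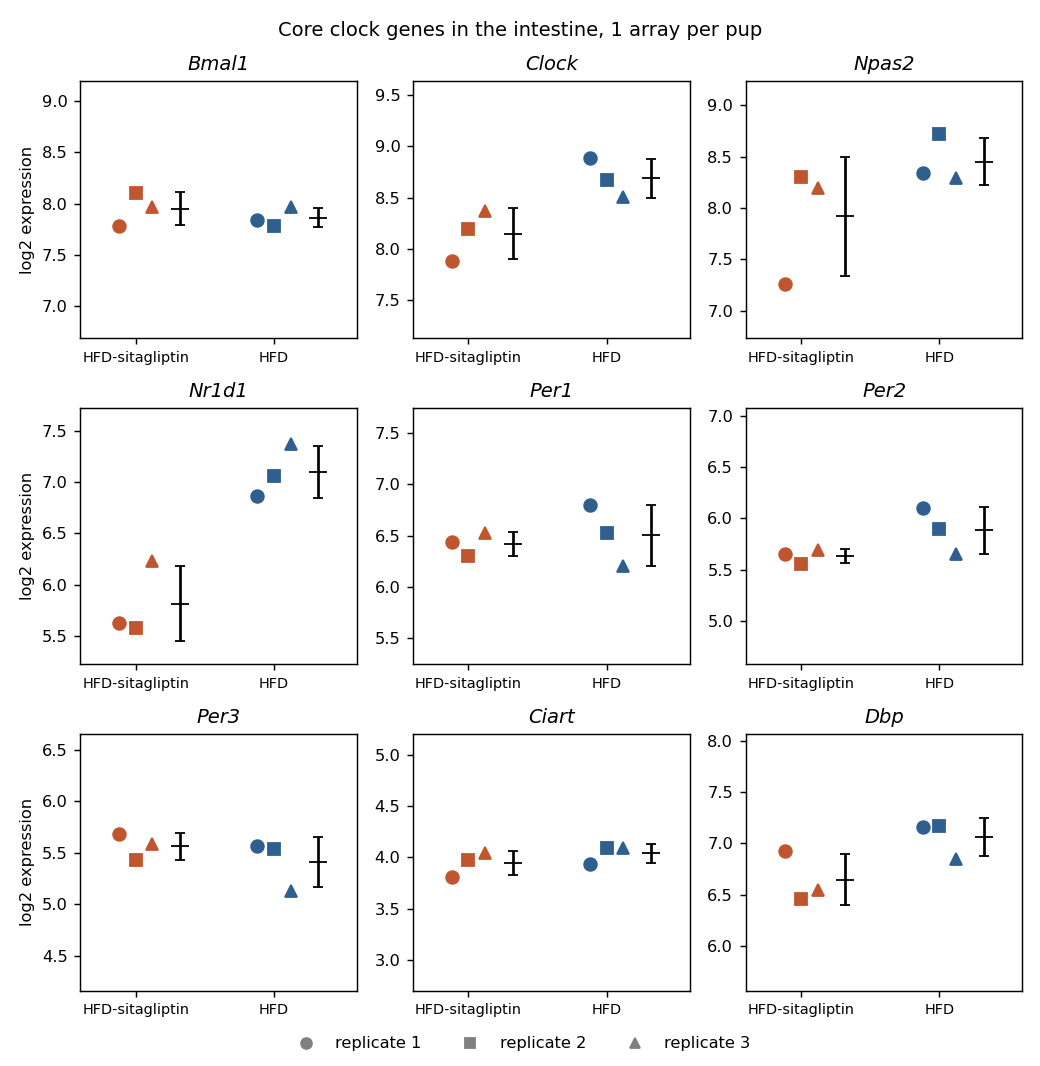
Log2 expression (y axis) of the 9 measured clock genes in HFD-sitagliptin pups (orange, left) and HFD pups (blue, right), 1 point per pup with its replicate number as the shape, and the mean with its SD as a black bar; every panel spans 2.5 log2 units. *Nr1d1* lies at 5.58 to 6.23 in HFD-sitagliptin pups and at 6.86 to 7.37 in HFD pups, while the points of *Bmal1*, *Per1*, *Per3* and *Ciart* mix.

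The arrays differed in genes that mark regions of the gut, so each member was also read without HFD-sitagliptin replicate 1, the array that stood apart most. *Car1*, a carbonic anhydrase of the colonic epithelium, was at 12.41 in HFD-sitagliptin replicate 1 and between 3.41 and 4.04 in the other arrays, and *Si*, the brush border sucrase-isomaltase, was at 2.72 there and between 11.39 and 12.49 elsewhere. *Fabp6*, whose product binds bile acids in the ileum, was at 3.61, 13.16 and 3.77 in HFD-sitagliptin replicates 1, 2 and 3, against 7.36, 12.62 and 6.03 in HFD replicates 1, 2 and 3. The mean log2 level of 14 brush border genes ranged from 6.10 to 10.87 in HFD-sitagliptin pups and from 10.43 to 11.06 in HFD pups, and that of 8 smooth muscle genes from 8.34 to 9.85 in HFD-sitagliptin pups and from 8.30 to 8.63 in HFD pups. For 11 colon genes, 6 of them not above background, it ranged from 4.66 to 6.37 in HFD-sitagliptin pups and from 4.70 to 4.75 in HFD pups. The part of these differences in the members' values was not tested beyond the fits without that array. In these mixed tissues, fewer cells of a type and less RNA per cell cannot be told apart. *Nr1d1* was at 5.63 in HFD-sitagliptin replicate 1 and at 5.58 in replicate 2, which also differed in *Fabp6* from the rest of its group. Without replicate 1 the log2 fold change of *Nr1d1* was -1.19 (standard error 0.25, limma adjusted p = 0.843). It stayed past the threshold in each of the 14 alternative fits, which left out each array in turn or changed the scaling, the weights, the moderation, the block, the genes entered or the test, with log2 fold changes between -1.49 and -1.14 and adjusted p values between 0.445 and 0.895.

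**Figure D2:**
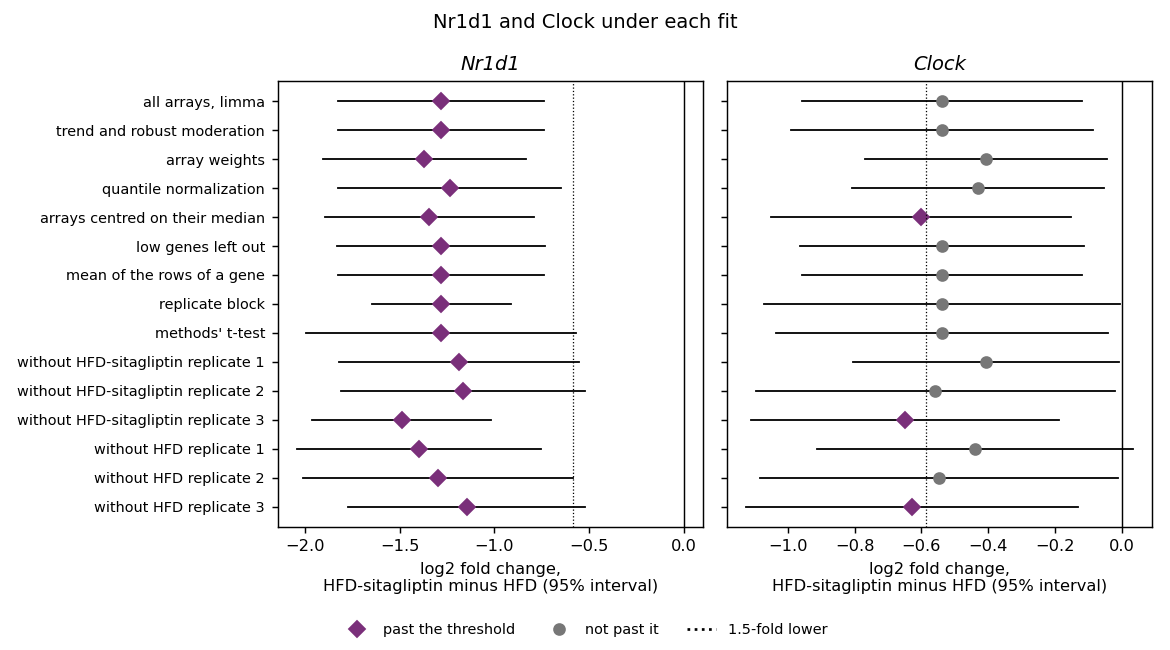
Log2 fold change of *Nr1d1* (left) and *Clock* (right), HFD-sitagliptin minus HFD, with its 95% interval (x axis), under the limma fit of all arrays and 14 alternatives (y axis); purple diamonds are past the threshold, grey circles are not, and the dotted line is 1.5-fold lower. *Nr1d1* is past the threshold in all 14 alternatives and *Clock* in 3 of them.

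Of the activators, *Clock* had the clearest difference, *Npas2* followed 1 array, and *Bmal1* hardly varied. *Clock*, the partner of BMAL1, was at 7.88, 8.19 and 8.37 in HFD-sitagliptin replicates 1, 2 and 3, against 8.88, 8.67 and 8.51 in HFD replicates 1, 2 and 3. The groups did not overlap, as for 5.54% of all genes in this direction, and the gap between them was 0.14. The mean of *Clock* was 8.15 ± 0.25 in HFD-sitagliptin pups and 8.69 ± 0.19 in HFD pups (SD, n = 3 each), a log2 fold change of -0.54 with a standard error of 0.17 and an unadjusted limma p of 0.0196 (adjusted p = 0.718). This was 0.689 times the HFD level and so just short of the 1.5-fold limit. *Clock* was past the threshold with each array centred on its median (-0.60), without HFD-sitagliptin replicate 3 (-0.65) and without HFD replicate 3 (-0.63), and its log2 fold change was -0.41 without HFD-sitagliptin replicate 1. Without HFD replicate 1 its unadjusted limma p was 0.0631 (adjusted p = 0.895).

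*Npas2*, a relative of *Clock* that can stand in for it, was at 7.25 in HFD-sitagliptin replicate 1 and at 8.30 and 8.19 in replicates 2 and 3, against 8.34, 8.72 and 8.29 in HFD replicates 1, 2 and 3. The groups overlapped, and the low value belongs to the array with the colonic genes. The log2 fold change was -0.53 with a 95% interval of -1.26 to 0.19, and it was -0.20 without that array. *Npas2* also had the widest spread among the members, with a within-group SD of 0.44 at percentile 86.7 of all genes.

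*Bmal1*, the activator that NR1D1 silences and whose window holds a pair of matches to the REV-ERB and ROR element, was at 7.78, 8.10 and 7.97 in HFD-sitagliptin replicates 1, 2 and 3, against 7.84, 7.79 and 7.97 in HFD replicates 1, 2 and 3. The groups overlapped and all 6 values lay within 0.32 of each other. The mean was 7.95 ± 0.16 in HFD-sitagliptin pups and 7.86 ± 0.10 in HFD pups (SD, n = 3 each), and the log2 fold change was 0.09 with a 95% interval of -0.23 to 0.41. That interval excludes a 1.5-fold difference in *Bmal1* in either direction.

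Of the repressors that act on BMAL1 and CLOCK, the *Per* genes and *Ciart*, none was past the threshold in limma or in the methods' t-test. *Per2* was at 5.65, 5.55 and 5.69 in HFD-sitagliptin replicates 1, 2 and 3, against 6.10, 5.90 and 5.65 in HFD replicates 1, 2 and 3, with a log2 fold change of -0.25 (95% interval -0.61 to 0.10). The highest pair of values were those of HFD replicates 1 and 2, and HFD replicate 3 lay among the HFD-sitagliptin pups. *Per1*, which glucocorticoids and immediate signals also induce, was at 6.44, 6.30 and 6.52 in HFD-sitagliptin pups, against 6.79, 6.52 and 6.20 in HFD pups, in the same order of replicates. HFD pups thus held both the highest and the lowest value, and the log2 fold change was -0.09 (95% interval -0.51 to 0.34), with the sign turned without HFD replicate 1 (0.058) and with array weights (0.0058). *Per3* was at 5.68, 5.43 and 5.58 in HFD-sitagliptin pups, against 5.57, 5.54 and 5.13 in HFD pups, and its log2 fold change was 0.15 (95% interval -0.24 to 0.54). The low value of 5.13 was again that of HFD replicate 3.

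*Ciart*, the gene of the repressor CHRONO, was at 3.81, 3.98 and 4.05 in HFD-sitagliptin pups, against 3.93, 4.09 and 4.09 in HFD pups. Its mean of 3.99 lay below 4.42, the 95th percentile of the mean levels of 1116 olfactory receptor genes, which the intestine hardly expresses, so *Ciart* was not told from background here. The other 8 measured members lay above that level. Its log2 fold change was -0.09 (95% interval -0.39 to 0.21). Its window, which lies within the gene, held 3 E-boxes, more than that of any other member.

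*Dbp*, the output factor that binds D-boxes, was at 6.93, 6.46 and 6.55 in HFD-sitagliptin replicates 1, 2 and 3, against 7.16, 7.17 and 6.85 in HFD replicates 1, 2 and 3. HFD-sitagliptin replicates 2 and 3 were below every HFD pup, and replicate 1 was above HFD replicate 3. The mean was 6.64 ± 0.25 in HFD-sitagliptin pups and 7.06 ± 0.18 in HFD pups (SD, n = 3 each), a log2 fold change of -0.41 with a standard error of 0.17 and a 95% interval of -0.83 to 0.01. With an unadjusted limma p of 0.0526 and 0.751 times the HFD level, *Dbp* was short of both limits over all arrays. Without HFD-sitagliptin replicate 1 its log2 fold change was -0.56 with an unadjusted limma p of 0.0122 (adjusted p = 0.843). The unadjusted limma p was also under 0.05 with array weights (0.0291), median centring (0.0384), the replicate block (0.0490) and without HFD replicate 3 (0.0377), with adjusted p values of 0.65 or more. The fold change stayed under 1.5 in each of the 14 alternative fits, so that *Dbp* passed in none of them.

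Of the 9 members, 7 had a negative and 2 a positive log2 fold change, where 48.1% of all genes had a negative one. Their median was -0.25, against 0.01 over all genes, and it was -0.20 without HFD-sitagliptin replicate 1, against -0.01 over all genes. Without that array the log2 fold change was 0.17 for *Bmal1*, -0.09 for *Per1*, -0.26 for *Per2*, 0.09 for *Per3* and -0.02 for *Ciart*. Without HFD replicate 1 the members' median was -0.14, with 3 positive and 6 negative. Of the members, 0 were past the threshold upwards (0.705% of all genes were) and 0 lay wholly higher in HFD-sitagliptin pups (5.97% of all genes did). *Nr1d1* and *Clock* lay wholly lower, as did 5.54% of all genes. An unadjusted p under 0.05 was reached by 2 members in limma, as by 5.72% of all genes, and by 2 in the methods' t-test, as by 4.26% of all genes. *Nr1d1* also varied over a wider range than any other member, 1.78 over the 6 arrays, although its spread within the groups (SD 0.31) was at percentile 71.4 of all genes. *Bmal1* (percentile 19.3) and *Ciart* (percentile 11.9) varied less within the groups than most genes.

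**Figure D3:**
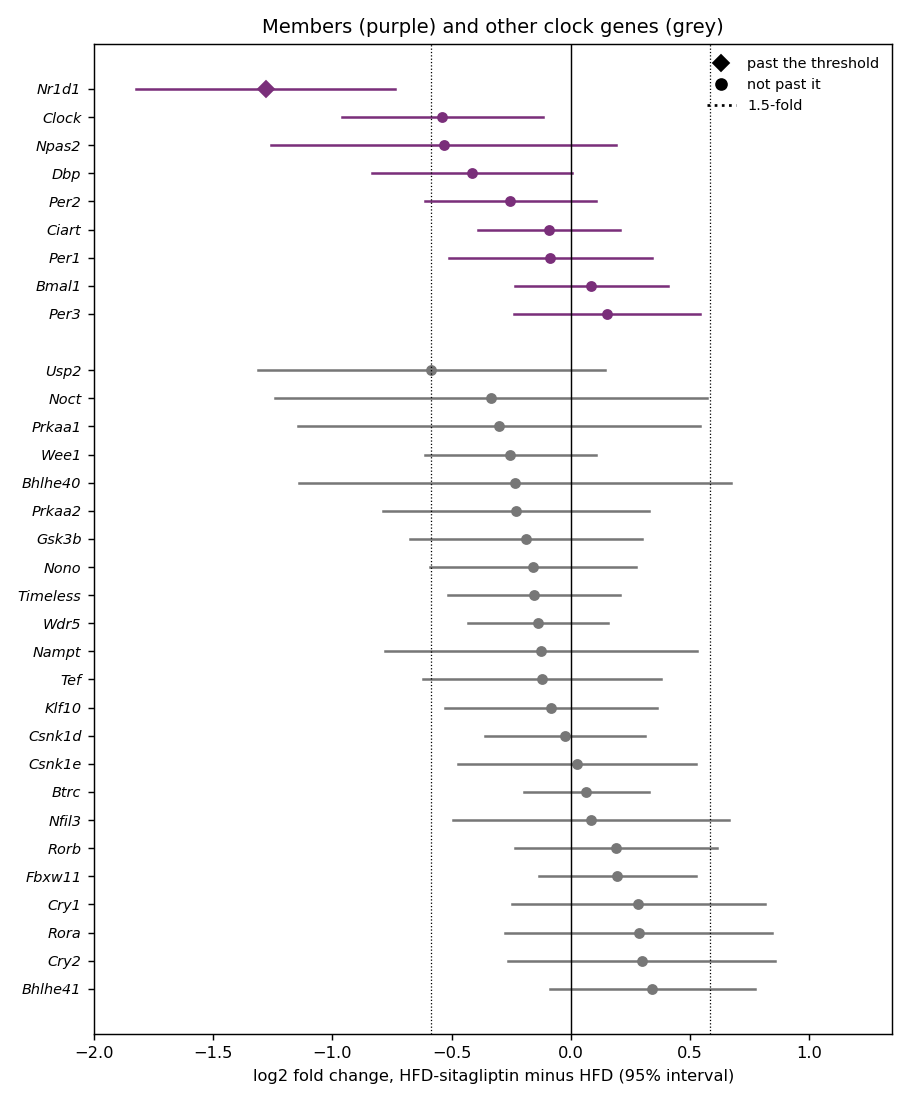
Log2 fold change, HFD-sitagliptin minus HFD, with its 95% interval (x axis) for the 9 members (purple, top) and 23 other clock genes (grey, bottom), each ordered by its value; the diamond is past the threshold, circles are not, and dotted lines mark 1.5-fold. *Nr1d1* at -1.28 is the 1 gene of both lists past the threshold, and *Clock* is the 1 other gene whose interval leaves out 0.

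Across the 6 pups, some members varied together and others in opposite directions. Of 36 pairs, 24 had a positive and 12 a negative Pearson r, 3 had an unadjusted exact permutation p under 0.05, and none passed after adjustment over the 36 pairs (lowest adjusted p = 0.371). *Per1* and *Per2* were the most closely related pair (r = 0.87, exact permutation p = 0.0278, rho = 0.90, exact permutation p = 0.0278, adjusted p = 0.371 and 0.61), with r = 0.79 without the pair of arrays farthest from the median of *Per1* and 0.63 without HFD replicate 1. *Bmal1* and *Dbp* ran in opposite directions (r = -0.87, exact permutation p = 0.0375, rho = -0.77, exact permutation p = 0.103, adjusted p = 0.371 and 0.61), with r = -0.89 without the pair of arrays farthest from the median of *Bmal1*, and with r = -0.51 where each array was centred on its median. *Clock* and *Per2* were positively related (r = 0.81, exact permutation p = 0.0444, rho = 0.81, exact permutation p = 0.0722, adjusted p = 0.371 and 0.61), with r = 0.90 without the pair of arrays farthest from the median of *Clock*. *Nr1d1* and *Bmal1*, the repressor and its target, had no settled relation (r = -0.26, exact permutation p = 0.622, rho = -0.09, exact permutation p = 0.919, adjusted p = 0.83 and 0.96), with r = -0.21 without the pair of arrays farthest from the median of *Nr1d1*. The r of *Nr1d1* and *Bmal1* was 0.02 under median centring and -0.53 under quantile normalization, and it ran from -0.70 without HFD-sitagliptin replicate 1 to 0.31 without HFD-sitagliptin replicate 2. These pairs join pups of both groups, so a difference between the groups enters each r. With the group means subtracted, r was 0.997 for *Per1* and *Per2* and -0.96 for *Bmal1* and *Dbp*. It was 0.61 for *Clock* and *Per2* and 0.25 for *Nr1d1* and *Bmal1*, and these r were not tested.

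**Figure D4:**
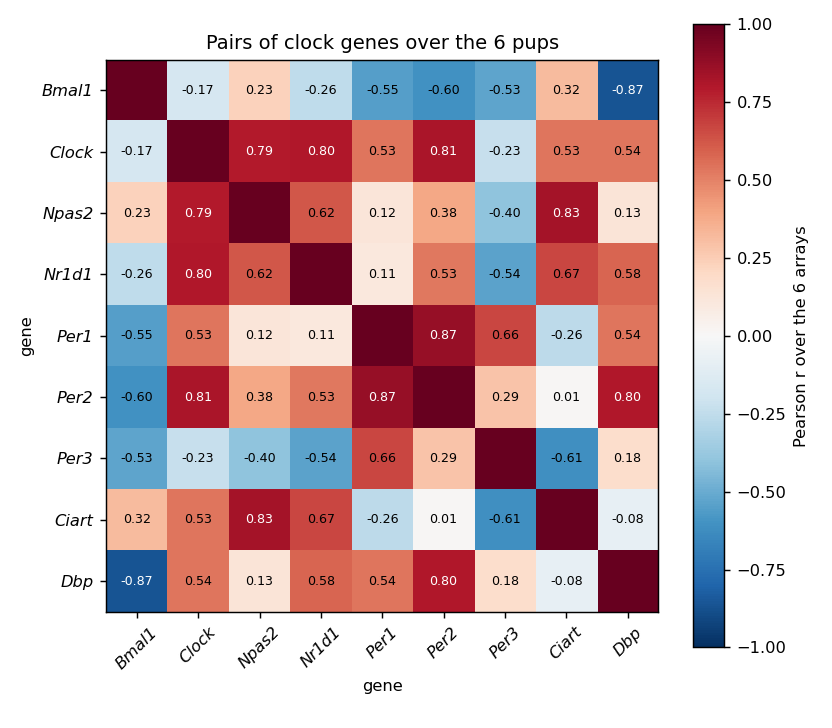
Pearson r over the 6 arrays for each pair of the 9 measured clock genes (both axes), from blue (-1) to red (1). *Bmal1* is negative against all *Per* genes, *Dbp*, *Clock* and *Nr1d1* on the values as deposited (positive with *Clock* and *Nr1d1* where arrays are centred on their median), and its strongest value is -0.87 with *Dbp*; 0 of the 36 pairs passed an adjusted p of 0.05, with 3 at an unadjusted p under 0.05.

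The genes around the core loop gave no call. Of 23 measured genes among 31 listed partners, modifiers and first outputs of the clock, 0 were past the threshold in limma (2.01% of all genes were). In limma 0 had an unadjusted p under 0.05 (5.72% of all genes had), and the methods' t-test gave the same counts. For a list of 23 genes these counts are close to the shares of all genes. The log2 fold changes of the 23 had a median of -0.12, with 9 positive and 14 negative, but the median was 0.02 without HFD-sitagliptin replicate 3, with 12 positive and 11 negative, and -0.02 without HFD replicate 1. *Usp2*, a deubiquitinase gene driven by the clock, was at 5.25, 6.37 and 6.29 in HFD-sitagliptin replicates 1, 2 and 3, against 6.54, 6.58 and 6.54 in HFD replicates 1, 2 and 3. Its groups did not overlap, as for 5.54% of all genes in this direction. Its log2 fold change was -0.58 over all 6 arrays (limma adjusted p = 0.718) but -0.22 without HFD-sitagliptin replicate 1, the array with the colonic genes. *Cry1* and *Cry2*, the partners of the PER proteins, had log2 fold changes of 0.28 and 0.30, with 95% intervals of -0.25 to 0.81 and -0.26 to 0.86. *Bhlhe41*, a repressor that competes for E-boxes, had 0.34 but was not above background, *Wee1*, a cell cycle kinase with E-boxes, had -0.25, and *Fbxw11*, a ubiquitin ligase that acts on PER proteins, had 0.19. *Noct*, a rhythmic phosphatase gene named after its values were seen, had -0.33 over all 6 arrays and was the 1 gene of this list past the threshold without HFD replicate 1 (-0.72, limma adjusted p = 0.895).

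*Fkbp5*, a co-chaperone of the glucocorticoid receptor and among the genes that glucocorticoids induce most, was also lower in every HFD-sitagliptin pup than in any HFD pup. It was at 6.35, 6.44 and 7.13 in HFD-sitagliptin replicates 1, 2 and 3, against 7.85, 7.73 and 8.69 in HFD replicates 1, 2 and 3, so that the groups did not overlap, as for 5.54% of all genes in this direction. Its log2 fold change was -1.45 with a standard error of 0.32 and an unadjusted limma p of 0.00337 (adjusted p = 0.718), and it passed the threshold in all 14 alternatives. It was the 1 gene past the threshold (2.01% of all genes were) among 13 measured genes that glucocorticoids or fasting induce, a list taken because *Per1* answers to the same signals. The other 12 were not past it, and of the 13 genes 8 had a negative and 5 a positive log2 fold change, with a median of -0.11. That median was -0.34 without HFD replicate 1 and 0.01 without HFD replicate 2. With lower levels 1 to 2 genes were past the threshold, and with higher levels 0 to 1, when 1 array was left out. *Angptl4*, a lipoprotein lipase inhibitor induced by fasting, had -0.67 (past the threshold at -1.06 without HFD-sitagliptin replicate 2) and *Ddit4*, an inhibitor of growth signalling, had 0.40 (past it at 0.61 without HFD-sitagliptin replicate 3).

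A search for likeness took 4474 genes whose mean over the 6 arrays was above background and whose SD was at least 0.3. The 5 with the pattern most like that of *Nr1d1* were *Cyp4a1* (r = 0.983), *Fkbp5* (0.976), *Golga1* (0.971), *Ascc3* (0.970) and *Them7* (0.967), by Pearson r over the 6 arrays. These r are a description, since the genes were taken for their likeness, and a difference between the groups is part of each. *Cyp4a1*, a fatty acid omega-hydroxylase, was at 3.87, 3.89 and 4.36 in HFD-sitagliptin replicates 1, 2 and 3, against 5.44, 5.26 and 5.84 in HFD replicates 1, 2 and 3. All its HFD-sitagliptin values lay below the background level of 4.42, so it entered the search through its HFD values. As in *Nr1d1*, the highest HFD-sitagliptin value was that of replicate 3 and the highest HFD value was that of replicate 3. *Fkbp5* was ordered the same way in its highest values, and *Golga1*, a gene of a Golgi coiled-coil protein, *Ascc3*, a helicase gene, and *Them7* had smaller log2 fold changes of -0.55, -0.55 and -0.72. Of the other members, only *Clock* and *Npas2* met both limits of this search, and neither was among the 5. Their r with *Nr1d1* was 0.80 and 0.62, or 0.14 and 0.22 with the group means subtracted. The rest of the members were shut out by the limits, so their absence is not a result.

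**Figure D5:**
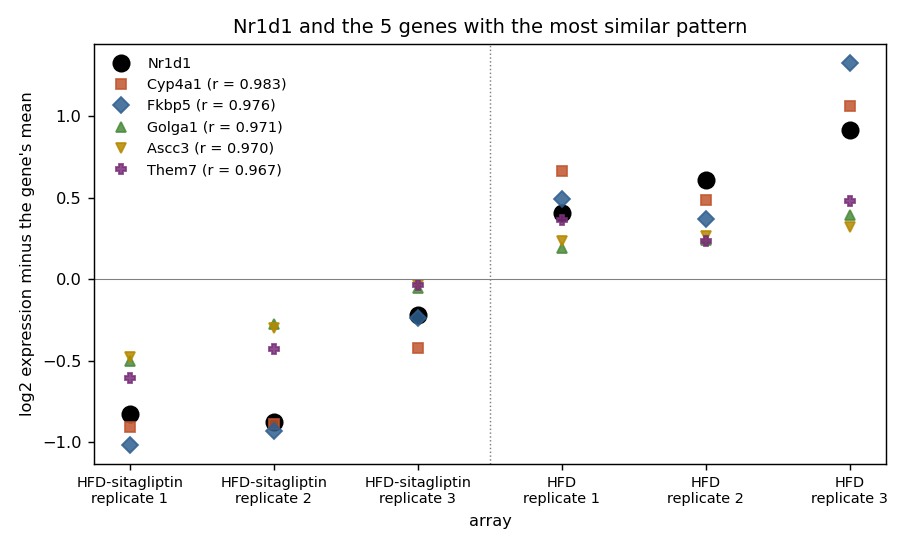
Log2 expression minus the gene's own mean over the 6 arrays (y axis) for *Nr1d1* (black circles) and the 5 genes with the highest Pearson r to it, in each array (x axis; HFD-sitagliptin left of the dotted line, HFD right of it). *Nr1d1* lies at -0.83, -0.87 and -0.22 in HFD-sitagliptin pups and at 0.40, 0.61 and 0.91 in HFD pups, and all 6 genes are below their mean in the 3 HFD-sitagliptin pups and above it in the 3 HFD pups.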

How the data were processed

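Total RNA from the intestines of 3 HFD-sitagliptin and 3 HFD male pups was hybridised to Affymetrix GeneChip Rat Gene 2.0 ST arrays. The authors deposited log2 values normalized in GeneSpring with an algorithm not given in the sources used here; that the scale is log2 was judged from their span (0.58 to 13.5), and the medians of the arrays ran from 4.45 to 4.62. Just 1 gene symbol is paired with 18511 of the 36685 transcript clusters, several with 575 and none here with 17599, and for each of 18166 genes the cluster with the highest mean was used, with no filter on low values. Each measured member had 1 cluster. The number of arrays limits the precision.

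The groups were fitted without covariates in limma 3.58.1 under R 4.3.3, with empirical Bayes moderation and Benjamini-Hochberg adjustment over all genes; permutation tests were run in scipy 1.17.1. The fit was tested on simulated data. Named genes are the members, the genes past the threshold and those with the smallest p in each list (6 clock genes, 3 in each other list), and the 5 most like *Nr1d1* or *Bmal1*. *Noct*, *Car1*, *Si* and *Fabp6* fall outside this rule and were named with their values known. The members, lists and threshold were chosen with earlier results of these data known. The alternatives were array weights, moderation with a trend and robust to outlying genes, quantile normalization, median centring, a filter on low genes, the mean of a gene's clusters, a replicate block, the methods' t-test, other thresholds and each array left out.

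After subtraction of the group means, arrays of the same replicate number correlated across genes at 0.146, 0.284 and 0.148, and the others at -0.24 to 0.0201. The numbers were therefore treated as pairing the pups in the fit with a block. No label or method states a pairing, so it rests on these correlations, which come from the same data as the fit. The deviations cancel within each group, so positive values at the same number go with negative ones elsewhere. The p values of the fit with a block are thus not independent of how the pairing was chosen.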

Additional observations from a re-analysis of the deposited data

How the results depend on the processing

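*Nr1d1*, *Fkbp5*, *Cyp4a1* and *Them7* kept their direction and stayed past the threshold in all 14 alternative fits. *Nr1d1* had a log2 fold change of -1.28 and an unadjusted limma p of 0.000338 with the replicate block (adjusted p = 0.65), and the block changed no call on a member; 476 genes were past the threshold with it, against 365 without. The count of members past it was 1 as reported, 2 under median centring, 2 with no fold threshold and 0 at an adjusted p under 0.05, and 1 to 2 with 1 array left out, the added gene being *Clock* each time. For the other clock genes, the count was 0 to 1 with 1 array left out. Over all genes, 158 were past the threshold in the methods' t-test, 57 at a fold change of at least 2, 1040 with no fold threshold and 0 at an adjusted p under 0.05. With 1 array left out it was 239 (without HFD replicate 1) to 880 (without HFD-sitagliptin replicate 3). Median centring gave 81 higher and 390 lower genes in HFD-sitagliptin pups, against 128 and 237 as deposited. Of the genes refitted under these alternatives, *Per1* turned direction, to 0.0058 with array weights and 0.058 without HFD replicate 1 (range -0.24 to 0.058 with 1 array left out); the cause was not tested. No pair of members passed an adjusted p of 0.05 under quantile normalization, median centring or with 1 array left out. *Ciart* could not be fitted where low genes were left out.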

Other observations

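Immediate early genes, which handling, anaesthesia or feeding can induce within minutes and which can induce *Per1*, gave no call between the groups. Of 15 measured genes, 0 were past the threshold in limma (2.01% of all genes were) and 0 had an unadjusted p under 0.05 (5.72% of all genes had). The methods' t-test put 0 past the threshold, with 1 at an unadjusted p under 0.05 (4.26% of all genes had one). For a list of 15 genes these counts are close to the shares of all genes. The median log2 fold change of the 15 was 0.16 over the 6 arrays and 0.08 without the array that carried colonic genes, HFD-sitagliptin replicate 1. It was 0.005 without HFD replicate 1, 0.03 without HFD replicate 3 and 0.26 without HFD replicate 2. *Jun*, a subunit of the AP-1 factor, was at 8.42, 7.86 and 8.10 in HFD-sitagliptin replicates 1, 2 and 3, against 6.79, 8.22 and 7.47 in HFD replicates 1, 2 and 3 (log2 fold change 0.63, limma adjusted p = 0.718), and without HFD replicate 2 its log2 fold change was 0.99 and past the threshold. *Nr4a1*, an orphan nuclear receptor, had -0.55 and was past the threshold without HFD replicate 3 (-0.80) and with each array centred on its median (-0.62). *Egr3*, a zinc finger factor, was at 4.73 to 4.77 in HFD-sitagliptin pups and at 4.34 to 4.62 in HFD pups, groups that did not overlap, as for 5.97% of all genes in this direction (log2 fold change 0.25). Its mean of 4.62 was little above the background level of 4.42, and its value of 4.34 in HFD replicate 2 lay below that level.

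The 5 genes with the pattern most like that of *Bmal1* over the 6 arrays were *Abi3* (r = 0.972), *Abtb2* (0.954), *Gzma* (0.951), *Lmo7* (0.947) and *Spsb1* (0.942). Of the other members only *Nr1d1*, *Clock* and *Npas2* met the limits of the search, and none of them was among the 5. *Bmal1* itself was highest in HFD-sitagliptin replicate 2 (8.10), as was *Gzma*, a granule protease gene of cytotoxic lymphocytes, which was at 5.25, 7.66 and 6.90 in HFD-sitagliptin replicates 1, 2 and 3, against 6.04, 5.82 and 7.42 in HFD replicates 1, 2 and 3. These r describe the arrays, and the genes were taken for their likeness.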
